A study of Mus musculus with 9 samples.

Results

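The genes of creatine and adenylate energy buffering were followed in the gastrocnemius of female mice, the members being chosen by symbol: Ckm, Ckmt2, Gatm, Gamt, Slc6a8, Ak1, Ampd1 and Ampd3. All 8 members had a row among the 56791 genes of the deposited count table, and all 8 passed the filter on low counts that left 17534 genes. The gastrocnemius is a fast-fibred muscle of the calf. RNA-seq libraries of 3 groups, 3 in each, were compared: aged mice given ginkgolide B (GB), aged mice given vehicle and young mice given vehicle. Per the labels, GB was given at 12 mg per kg body weight, the vehicle was saline, and every group was gavaged daily for 2 months. The titles hold 23M for aged vehicle, 3M for young vehicle and no such value for GB. No strain is given, and no label ties a library to an animal; a p-value here rests on library-to-library spread, which may be technical.

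Muscle contraction uses ATP faster than mitochondria or glycolysis can remake it for short bursts, and phosphocreatine fills the gap. Cytosolic creatine kinase transfers phosphate from phosphocreatine to ADP near the myosin and calcium pump ATPases, while mitochondrial creatine kinase charges creatine with ATP as it leaves the mitochondrion. Adenylate kinase turns a pair of ADP molecules into ATP and AMP, and AMP deaminase removes the AMP as IMP, the first step of the purine nucleotide cycle. Creatine itself is made by Gatm and Gamt, mostly in kidney and liver, and muscle takes it up from blood through Slc6a8.

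The promoter windows of the creatine kinase pair are shown because the level of Ckmt2 beside Ckm differed between the groups. The windows come from RefSeq on build GRCm38.p6 and run from 250 bases before to 50 bases after the annotated start, with E-boxes (CANNTG, the core that myogenic factors such as MyoD bind) in capitals. The Ckm window lies at chr7:19410844-19411143 on the plus strand and the Ckmt2 window at chr13:91876836-91877135 on the minus strand.
Ckm: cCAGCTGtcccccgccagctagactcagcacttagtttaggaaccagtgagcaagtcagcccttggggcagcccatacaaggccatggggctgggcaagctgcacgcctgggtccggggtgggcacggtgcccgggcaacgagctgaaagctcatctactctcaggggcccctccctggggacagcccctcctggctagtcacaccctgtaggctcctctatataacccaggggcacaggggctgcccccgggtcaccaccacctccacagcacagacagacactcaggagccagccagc
Ckmt2: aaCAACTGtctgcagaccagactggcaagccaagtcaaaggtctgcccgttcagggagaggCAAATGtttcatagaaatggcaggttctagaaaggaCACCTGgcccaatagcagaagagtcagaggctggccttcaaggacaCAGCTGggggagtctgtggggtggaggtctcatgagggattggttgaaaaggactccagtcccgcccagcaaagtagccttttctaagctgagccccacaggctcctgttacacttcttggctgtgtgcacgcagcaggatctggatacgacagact

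The Ckm window held 1 E-box and the Ckmt2 window held 4, on a motif that reads the same on both strands. Of 32851 RefSeq promoter windows of this length, 72.3% held at least 1 E-box. The share with 4 or more was not counted, so the counts of 1 and 4 have no background. Neither window held the ERR element TNAAGGTCA, present on either strand in 1.28% of windows, or a MEF2 element, present in 3.19%. The Ckm window lies inside the GENCODE span of the gene (chr7:19404776-19422841), and sequence outside the windows was not searched. Windows for Ampd1 and Slc6a8 were not used here.

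Total counts were 39478427 to 44294097 in GB libraries, and aged and young vehicle libraries had 52068522 to 54095457 and 51543383 to 61680520. The GB libraries stood apart from the others. Genes with a count numbered 18678 to 19362 with GB, against 22868 to 23045 with aged vehicle and 22616 to 24185 with young vehicle. Mitochondrially encoded genes took 24.3 to 26.1% of counts with GB, against 13.9 to 15.3% with aged vehicle and 8.6 to 10.2% with young vehicle. All 3 libraries that stood apart were GB libraries, so GB and any difference in preparation cannot be told apart. Levels are in CPM, counts scaled to library size with TMM factors. Of the 10 type IIb fast fibre markers, Tnnc2 was near the floor. It averaged 0.761, 0.661 and 0.966 CPM in GB, aged vehicle and young vehicle libraries. The cause of this low level was not tested. The other type IIb markers averaged 1269 CPM or more in each group. The summed level of 10 type IIb markers was 126700 to 153200 CPM with GB. It was 81010 to 99560 CPM with aged vehicle and 120200 to 127400 CPM with young vehicle. Age gave 5 falls, and GB gave 5 rises and 2 falls. The myosin Myh4 on this list averaged 33890 CPM with GB, 29800 with aged vehicle and 48660 with young vehicle. It was not called between GB and aged vehicle (log2 fold change 0.19, SE 0.12, edgeR adjusted p = 0.199). For Myh4, GB lay below young vehicle (-0.52, SE 0.12, edgeR adjusted p = 0.00218). Of 10 slow fibre markers 8 fell with age, and GB gave 8 rises and 1 fall. Their summed level was 1481 to 1921 CPM with GB, 199 to 272 CPM with aged vehicle and 1732 to 2418 CPM with young vehicle. The part of either fibre list in the values of the 8 members was not tested. Over all genes tested 4.28% fell with age, and with GB 24.4% rose and 28.8% fell. Fewer cells of a type and less RNA per cell cannot be told apart in whole muscle.

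Per length, Ckm was the most abundant of the 8 transcripts in every library. It stood at 1665 to 2411 CPM per kilobase with GB, against 2018 to 2422 with aged vehicle and 2720 to 2920 with young vehicle. Its rank among all genes by this measure was 32 to 35 with GB, 19 with aged vehicle and 18 to 19 with young vehicle. The next places changed with the group. In GB libraries Ak1 (541 to 584 CPM per kilobase) lay above Ckmt2 (324 to 405), in aged vehicle libraries Ckmt2 (705 to 934) lay above Ak1 (377 to 415), and in young vehicle libraries Ckmt2 (430 to 545) and Ak1 (496 to 530) overlapped. Ampd1 followed at 252 to 278, 219 to 296 and 284 to 329 CPM per kilobase in GB, aged vehicle and young vehicle libraries.

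Slc6a8, Gamt, Ampd3 and Gatm were far lower. Slc6a8 was at 12.5 to 15.1 CPM per kilobase with GB, against 19.7 to 23.5 with aged vehicle and 28.8 to 31.9 with young vehicle. Gamt was at 17.7 to 24.3, 5.26 to 6.14 and 6.58 to 8.88 in the same groups, so that it lay above Slc6a8 with GB and below it in both vehicle groups. Over all 9 libraries Ampd3 was at 2.50 to 7.97 and Gatm at 1.51 to 3.01 CPM per kilobase. Gatm was the lowest of the 8 in every library, and Ampd3 came next to it except in aged replicate 1, where it (7.97) lay above Gamt (5.26). Together the 8 genes took 0.63 to 0.77% of all counts with GB, against 1.07 to 1.18% with aged vehicle and 1.28 to 1.34% with young vehicle.

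**Figure D1:**
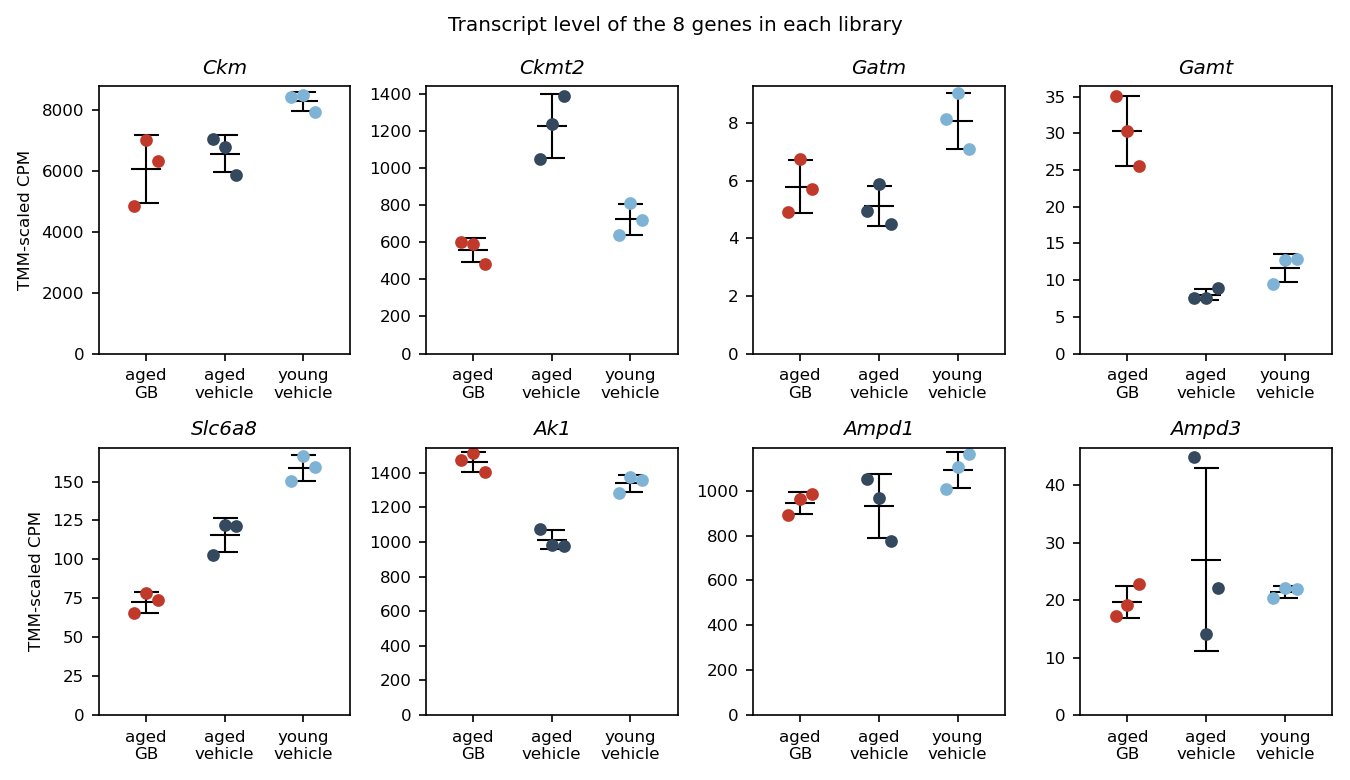
TMM-scaled CPM of each of the 8 genes (linear axis from 0, a scale of its own in each panel) in the 3 libraries of aged GB, aged vehicle and young vehicle mice; points are libraries and bars are mean ± SD. Ckmt2 is highest in aged vehicle libraries (1047 to 1388 CPM), Gamt is highest with GB (25.6 to 35.1 CPM), and 1 aged vehicle library of Ampd3 (44.9 CPM) lies above the other 8.

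The first comparison of the series design set aged against young muscle under vehicle. Mitochondrial creatine kinase was higher in aged muscle, while the synthesis genes, the creatine transporter and adenylate kinase 1 were lower. Of the 8 genes 1 rose (Ckmt2) and 4 fell (Ak1, Gatm, Gamt and Slc6a8), in edgeR's quasi-likelihood test at an adjusted p under 0.05. Over all genes tested 8.60% were called, 4.32% as rises and 4.28% as falls. The libraries of the groups did not overlap for 6 of the 8 genes, all but Ampd1 and Ampd3, and for 34.4% of all genes. The median log2 fold change of the 8 genes was -0.37, against 0.00 over all tested genes. The count of 5 was 4 without young replicate 1, 3 without young replicate 3 or aged replicate 1, 2 or 3, and 2 without young replicate 2.

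The second comparison set GB against vehicle in aged muscle. Gamt and Ak1 were higher with GB, and Ckmt2 and Slc6a8 were lower. The 4 called members, 2 rises and 2 falls, stand against 53.2% of all genes called (24.4% as rises and 28.8% as falls), so the share called among the members is near the background. The libraries did not overlap for these 4 genes, against 59.7% of all genes. On the log2 scale the median fold change was -0.05 for the members and -0.05 for all genes. With library totals in place of TMM factors the median of all genes moved to -0.62, and 6 members were called, 1 as a rise and 5 as falls. At that scaling 59.6% of all genes were called, 11.6% as rises and 48.0% as falls, so the members' split is again near the background. Ckmt2, Slc6a8 and Gamt kept their direction there at -1.70, -1.25 and 1.35, and Ak1 was at -0.03. Directions with GB below are on the TMM scale. The aged vehicle libraries are shared by both comparisons, and their values are given side by side only. Set against young vehicle, GB left 5 members called, 1 as a rise (Gamt) and 4 as falls (Ckm, Ckmt2, Gatm and Slc6a8), where 53.6% of all genes were called, 24.7% as rises and 29.0% as falls. Library totals gave 7 members called in this contrast (1 rise and 6 falls, with 12.1% and 48.6% of all genes), and upper-quartile factors gave 4 (2 rises and 2 falls, with 25.9% and 27.5%). Libraries did not overlap in this contrast for 7 of the 8 genes, all but Ampd3, and for 60.7% of all genes. The count of 5 was 3 without young replicate 2 or GB replicate 3.

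**Figure D2:**
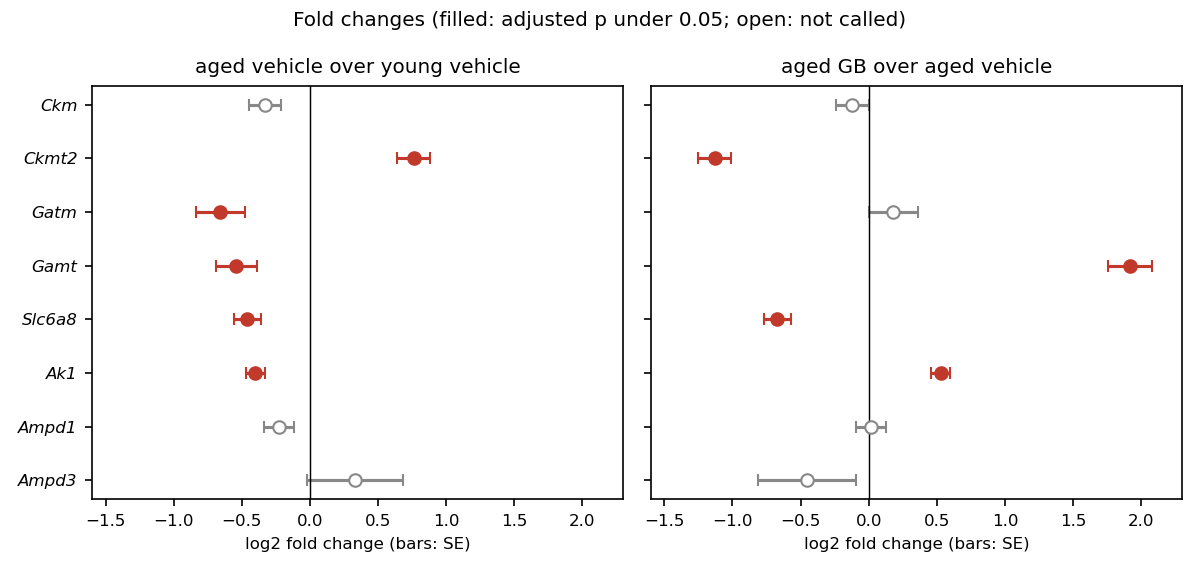
Log2 fold change (points) with its SE (bars) of each gene for aged vehicle over young vehicle (left) and aged GB over aged vehicle (right); filled red points had an adjusted p under 0.05. Ckmt2 lies at 0.76 on the left and -1.13 on the right, and Gamt at -0.54 and 1.92; with library totals the right-hand value of Ak1 was -0.03 and was not called.

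Ckm encodes the muscle cytosolic creatine kinase (GRCm38 chr7:19404776-19422841, plus strand). Its level was 4851, 7024 and 6321 CPM in GB replicates 1 to 3, against 7056, 6773 and 5878 CPM in aged vehicle replicates and 8427, 8505 and 7924 CPM in young vehicle replicates. All 3 aged vehicle libraries lay below all 3 young vehicle libraries, and the GB and aged vehicle libraries overlapped. The age difference did not pass (log2 fold change -0.33, SE 0.12, edgeR adjusted p = 0.11), and it passed in a fit of only these groups (adjusted p = 0.0292). With GB the value was -0.12 (SE 0.12, adjusted p = 0.445). With library totals it was -0.69 (adjusted p = 0.000105), close to the shift of the median gene. GENCODE M21 places 451 exonic bases of Ckm in an antisense gene, and the sources used here do not say whether counting used strand.

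Ckmt2 encodes the sarcomeric mitochondrial creatine kinase (chr13:91853387-91876885, minus strand). It was at 602, 591 and 482 CPM in GB replicates, 1047, 1237 and 1388 CPM in aged vehicle replicates and 640, 809 and 718 CPM in young vehicle replicates. The aged vehicle libraries stood above all 6 others. Ckmt2 shares 84 exonic bases with an antisense gene. Ckmt2 rose 1.69-fold with age (0.76 on the log2 scale, SE 0.12, edgeR adjusted p = 0.00258), and it fell with GB (-1.13, SE 0.12, adjusted p = 7.76e-06). GB lay below young vehicle as well (-0.37, SE 0.12, adjusted p = 0.0218), a call lost without young replicate 2 or GB replicate 3 (adjusted p = 0.0878 and 0.0864) and with upper-quartile factors (0.0535).

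Within each library, Ckmt2 per kilobase was 24.3, 16.5 and 15% of Ckm in GB replicates, 29.1, 35.8 and 46.3% in aged vehicle replicates and 14.9, 18.6 and 17.8% in young vehicle replicates. This ratio does not depend on library scaling. On the log2 scale it was 1.10 higher in aged than in young vehicle libraries (-1.46 ± 0.34 against -2.55 ± 0.17, SD, n = 3 each, exact two-sided permutation p = 0.1) and 1.00 lower with GB than in aged vehicle libraries (-2.46 ± 0.37 against -1.46 ± 0.34, SD, n = 3 each, exact two-sided permutation p = 0.1). Groups of 3 cannot give a p below 0.1, and over the 9 ratio tests the adjusted value was 0.225 for both. In each of these contrasts all 3 libraries of 1 group lay beyond all 3 of the other.

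**Figure D3:**
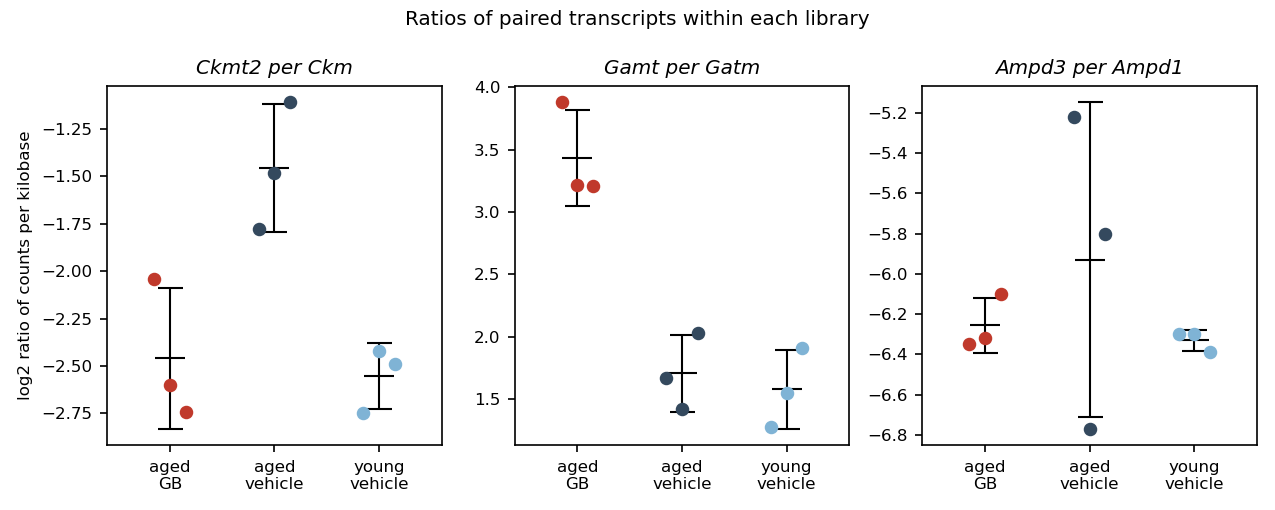
Log2 ratio of counts per kilobase for Ckmt2 over Ckm, Gamt over Gatm and Ampd3 over Ampd1 in each library (points) with mean ± SD (bars), for aged GB, aged vehicle and young vehicle groups. The Ckmt2 to Ckm ratio averages -1.46 in aged vehicle against -2.55 in young vehicle libraries, and the Gamt to Gatm ratio averages 3.44 with GB against 1.71 in aged vehicle libraries.

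Gatm and Gamt make creatine in turn: Gatm transfers the amidino group of arginine to glycine, and Gamt methylates the product. Gatm (chr2:122594467-122611303, minus strand) was at 4.93, 6.75 and 5.73 CPM in GB replicates, 4.96, 5.91 and 4.52 CPM in aged vehicle replicates and 8.14, 9.04 and 7.10 CPM in young vehicle replicates. The young vehicle libraries lay above the other 6. Gatm fell with age (log2 fold change -0.66, SE 0.18, edgeR adjusted p = 0.0437), a call lost without any 1 of the 6 vehicle libraries (adjusted p of 0.061 to 0.173), and had 0.18 with GB (SE 0.18, adjusted p = 0.444). Against young vehicle, GB gave -0.48 (SE 0.18, adjusted p = 0.0435). This call was lost without young replicate 1 or 2 or GB replicate 1 or 3 (adjusted p of 0.0795 to 0.144). It was also lost with upper-quartile factors (0.0666), a minimum count of 30 (0.0536) and a fit of only these groups (0.057).

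Gamt (chr10:80258151-80261012, minus strand) was at 35.1, 30.3 and 25.6 CPM in GB replicates, against 7.60, 7.59 and 8.87 CPM in aged vehicle replicates and 9.50, 12.7 and 12.8 CPM in young vehicle replicates. The groups did not overlap. Gamt fell with age (log2 fold change -0.54, SE 0.15, edgeR adjusted p = 0.0485), a call lost without any 1 of 5 vehicle libraries (adjusted p of 0.0823 to 0.181) and kept without young replicate 1 (0.0159). It was also lost with DESeq2 size factors (0.0515) and with library totals (0.0656). In all, this age call was lost in 11 of 18 alternatives. With GB it rose 3.78-fold (log2 1.92, SE 0.16, adjusted p = 5.97e-07), and it lay above young vehicle by 1.38 (SE 0.15, adjusted p = 8.77e-06). Gamt per Gatm was 1.73 higher on the log2 scale with GB than in aged vehicle libraries (3.44 ± 0.39 against 1.71 ± 0.31, SD, n = 3 each, exact two-sided permutation p = 0.1, the smallest possible). Over the 9 ratio tests its adjusted value was 0.225. Gamt has 1444 bases and Gatm 3001. Tested genes of like length had median log2 fold changes with GB of 0.65 and 0.15 in turn, so the lengths differ in this ratio too.

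Slc6a8, the creatine transporter (chrX:73673150-73682502, plus strand), was at 65.3, 78.7 and 73.6 CPM in GB replicates, 103, 122 and 122 CPM in aged vehicle replicates and 150, 166 and 159 CPM in young vehicle replicates. The 3 groups did not overlap. It fell with age (log2 fold change -0.46, SE 0.10, edgeR adjusted p = 0.0113, and 0.0524 without young replicate 2) and fell with GB (-0.67, SE 0.10, adjusted p = 8e-05). GB lay at 45.7% of the young vehicle level (log2 -1.13, SE 0.10, adjusted p = 8.87e-07).

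Several markers of other cell types moved beside the low genes Slc6a8, Gatm and Gamt. The counts below stand against 4.32% of all genes called as rises and 4.28% as falls with age. With GB these shares were 24.4% and 28.8%. The summed level of 7 red blood cell markers was 688 to 783 CPM with GB, against 1159 to 2130 with aged vehicle and 240 to 515 with young vehicle; 5 of 7 rose with age and 4 of 7 fell with GB. Among 7 adipocyte markers, 3 were lower with age and 6 higher with GB; the sums were 624 to 846 CPM with GB, against 261 to 288 with aged vehicle and 280 to 448 with young vehicle. Among 8 fibroblast markers age gave 1 rise and 2 falls and GB gave 3 rises and 5 falls; the sums were 712 to 882 CPM with GB, against 808 to 1033 with aged vehicle and 894 to 1666 with young vehicle. Among 7 Schwann cell markers age gave 3 falls and GB gave 5 rises; the sums were 160 to 264 CPM with GB, against 111 to 124 with aged vehicle and 223 to 427 with young vehicle. Among 9 endothelial markers age gave 3 rises and GB gave 2 rises and 5 falls; the sums were 364 to 438 CPM with GB, against 635 to 670 with aged vehicle and 436 to 451 with young vehicle. Among 8 macrophage markers age gave 1 rise and GB gave 1 rise and 4 falls. The part of these lists in the Slc6a8, Gatm and Gamt differences was not tested. None of these markers was at 0 in all 9 libraries.

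Ak1, the cytosolic adenylate kinase of muscle (chr2:32621758-32635058, plus strand), was at 1474, 1513 and 1404 CPM in GB replicates, 1076, 983 and 979 CPM in aged vehicle replicates and 1286, 1374 and 1357 CPM in young vehicle replicates. The aged vehicle libraries lay below the other 6. Ak1 fell with age (log2 fold change -0.40, SE 0.07, edgeR adjusted p = 0.00441). It rose with GB on the TMM scale (0.53, SE 0.07, adjusted p = 4.35e-05), while library totals gave -0.03 (adjusted p = 0.673). Between GB and young vehicle the value was 0.13 (SE 0.07, adjusted p = 0.148), and -0.43 with library totals.

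The AMP deaminases did not pass in either comparison. Ampd1, the muscle form (chr3:103074014-103099720, plus strand), was at 892, 963 and 986 CPM in GB replicates, 1052, 968 and 777 CPM in aged vehicle replicates and 1007, 1106 and 1166 CPM in young vehicle replicates. The groups overlapped in both comparisons. Its log2 fold change was -0.23 with age (SE 0.11, edgeR adjusted p = 0.224) and 0.02 with GB (SE 0.11, adjusted p = 0.872). With library totals the GB value was -0.54 (adjusted p = 0.000265), again close to the shift of the median gene.

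Ampd3, the form of red blood cells and of wasting muscle (chr7:110768206-110812405, plus strand), was at 17.3, 19.1 and 22.7 CPM in GB replicates, 44.9, 14.1 and 22.1 CPM in aged vehicle replicates and 20.3, 22.2 and 22.0 CPM in young vehicle replicates. Aged replicate 1 lay above the other 8 libraries, and without it the values of both contrasts changed sign. The log2 fold change was 0.33 with age (SE 0.35, edgeR adjusted p = 0.658), and -0.24 without aged replicate 1. With GB it was -0.45 (SE 0.36, adjusted p = 0.32), 0.11 without aged replicate 1 and -0.78 without aged replicate 2 (adjusted p = 0.0242). With library totals it was -1.0 (adjusted p = 0.0237).

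In aged replicates 1, 2 and 3 the summed red blood cell markers were at 1159, 2130 and 1428 CPM. The summed level of 8 genes of denervated fibres was 116, 67.5 and 109 CPM in the same libraries. In GB replicates this sum was 138.5, 119.3 and 117.7 CPM, and in young vehicle replicates 58.1, 55.7 and 54.5 CPM. The part of neither list in the Ampd3 values was tested. Ampd3 per kilobase was 1.22 to 1.46% of Ampd1 with GB, 0.918 to 2.69% with aged vehicle and 1.19 to 1.27% with young vehicle. Ampd3 shares 195 exonic bases with Rnf141 on the opposite strand, whose reads could not be told apart if strand was not used.

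Fold change with GB followed gene length across the transcriptome, so each member was set beside genes of its own length (within 0.25 on the log2 scale of length). Ckmt2, of 1486 bases, had -1.13, against a median of 0.65 for 1270 such genes. Gamt, of 1444 bases, had 1.92 against 0.65 for 1218 genes. Ak1 had 0.53 against 0.25 for 2483 genes, and Slc6a8 had -0.67 against -0.21 for 3186 genes. When each library's trend with length was entered as an offset, all 4 stayed called in the same direction: Ckmt2 at -1.79, Gamt at 1.25, Ak1 at 0.25 and Slc6a8 at -0.47 (edgeR adjusted p of 5.22e-08, 1.29e-05, 0.0131 and 0.00099).

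**Figure D4:**
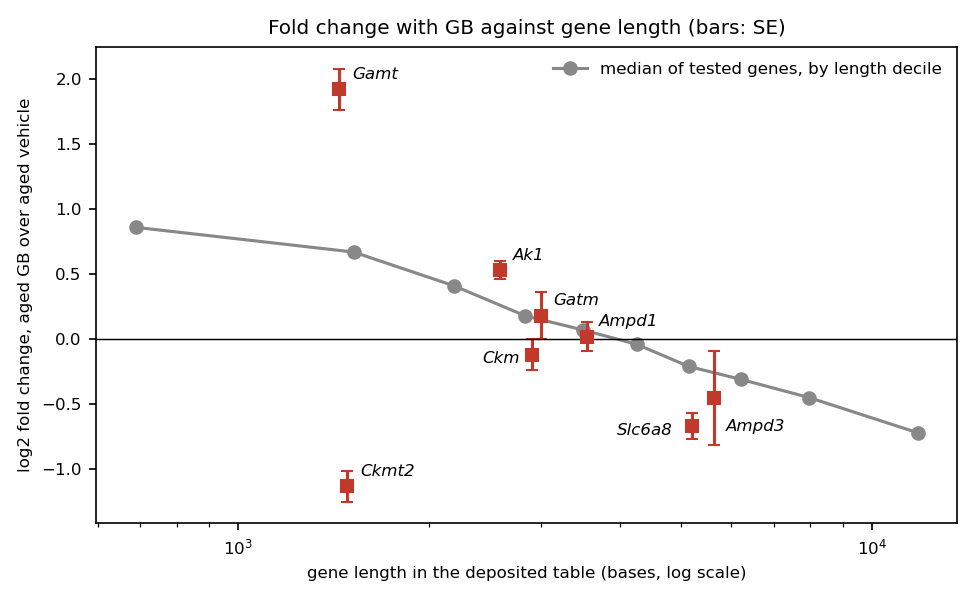
Log2 fold change of aged GB over aged vehicle against gene length in bases (log axis): red squares are the 8 genes with their SE, and grey points are the medians of all tested genes in 10 bins of length. The medians run from 0.86 in the shortest bin to -0.72 in the longest, and Ckmt2 (-1.13) lies below and Gamt (1.92) above genes of like length.

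Other genes of the pathway, in lists drawn up by function, gave the setting of these members. Unlike the members, these genes and the cell type markers were not set beside genes of like length. The median log2 fold change with GB was 0.86 in the shortest length bin and -0.72 in the longest. The part of length in the values below was not tested. With library totals the GB counts of rises and falls in these lists became 0 and 0 for the other creatine kinases, 1 and 2 for adenylate kinases and 2 and 9 for purine genes. They became 1 and 3 for AMP-activated protein kinase, 0 and 7 for ATP export and anchoring, and 0 and 7 for the methyl donor cycle. At that scaling 11.6% of all genes were called as rises and 48.0% as falls. Of the rises named below, Ckb (0.16), Adssl1 (0.03), Prkag3 (0.27), Vdac2 (0.07) and Vdac3 (0.19) were then not called. The list counts that follow use TMM factors, where 24.4% of all genes rose and 28.8% fell with GB. With age 4.32% of all genes rose and 4.28% fell. Of the other creatine kinases, Ckb, the brain form that smooth muscle also carries, was not called with age (log2 fold change -0.13, SE 0.25) and rose with GB (0.73, SE 0.25, edgeR adjusted p = 0.0278). Of 8 smooth muscle and pericyte markers 4 rose with age and 5 fell with GB, with sums of 423 to 492 CPM with GB against 726 to 833 CPM in aged vehicle libraries. Ckmt1, the ubiquitous mitochondrial form, had 0, 11 and 0 counts in GB replicates, 0 in each aged vehicle replicate and 0, 29 and 30 counts in young vehicle replicates, and did not pass.

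Of 8 other adenylate kinases 5 were tested. With age 0 passed in edgeR and 0 in limma-voom, and DESeq2 called 1 fall; 2 had an unadjusted edgeR p under 0.05, Ak3 (-0.30, SE 0.09) among them. With GB 2 rose and 1 fell, on a median log2 fold change of 0.18. Ak6, a nuclear adenylate kinase, had 1.82 (SE 0.12) but shares 1564 exonic bases with Taf9 on the same strand and is uncertain. Ak4 of the mitochondrial matrix fell by 0.87 (SE 0.16) on the log2 scale.

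In the purine nucleotide cycle and AMP breakdown or salvage, 16 of 17 genes were tested; age gave 2 rises, and GB gave 6 rises and 5 falls. The age rises were Xdh, which makes uric acid (77.7 ± 8.78 CPM in aged against 40.6 ± 10.7 CPM in young vehicle libraries, SD, n = 3 each; log2 fold change 0.94, SE 0.16, edgeR adjusted p = 0.00509), and Gda, which deaminates guanine (0.64, SE 0.13). With GB the muscle adenylosuccinate synthetase Adssl1, which follows Ampd1 in the cycle, rose to 1078 ± 37.9 CPM against 714 ± 42.4 CPM in aged vehicle libraries (SD, n = 3 each; log2 0.59, SE 0.08). The salvage enzymes Aprt and Hprt rose by 1.27 (SE 0.12) and 0.85 (SE 0.10). Nt5c1a, a cytosolic nucleotidase that dephosphorylates AMP, had 0, 6 and 14 counts in GB replicates against 748, 568 and 553 counts in aged vehicle replicates (log2 fold change -5.62, SE 0.49, adjusted p = 2.44e-06). Young vehicle replicates had 927, 623 and 821 Nt5c1a counts.

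AMP-activated protein kinase senses the AMP that Ak1 forms. Of its 7 subunits 1 fell with age, the muscle regulatory subunit Prkag3 (log2 fold change -0.91, SE 0.22, edgeR adjusted p = 0.032). With GB 3 rose and 2 fell. The catalytic subunit Prkaa2 fell to 102.5 ± 11.3 CPM against 267 ± 13.7 CPM in aged vehicle libraries, and the beta subunit Prkab2 fell to 138 ± 29.1 CPM against 345 ± 52.5 CPM (SD, n = 3 each). Prkag1 and Prkag3 rose by 1.83 (SE 0.13) and 0.84 (SE 0.22) on the log2 scale; Prkag1 shares 950 exonic bases with an antisense gene.

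All 9 genes of ATP export and of the sites where creatine kinase is bound were tested. With age Slc25a5, an ADP/ATP carrier, rose by 0.56 (SE 0.14) and Myom3, an M-band protein, fell by 1.84 (SE 0.18) on the log2 scale. With GB 3 rose and 4 fell. The outer membrane channel genes Vdac2 and Vdac3 rose by 0.63 and 0.75 (SE 0.09 each), while Vdac1 fell by 0.46 (SE 0.09). Myom2, an M-band protein, fell to 600 ± 53.5 CPM against 1320 ± 134 CPM in aged vehicle libraries (SD, n = 3 each). Of 9 tested genes listed for the methyl donor cycle, which supplies Gamt, 1 rose with age (Mat2a, 0.41, SE 0.12). With GB 0 of the 9 rose and 5 fell, where 24.4% of all genes rose and 28.8% fell. In the same GB contrast 0 rises had an unadjusted edgeR p under 0.05, and DESeq2 and limma-voom gave 0 rises with 6 and 5 falls. Mat2a, which makes the methyl donor S-adenosylmethionine, was among the falls at -0.96 (SE 0.12), as was Mtr at -1.57 (SE 0.16). The falls also held the Ahcy-like genes Ahcyl1 at -0.38 (SE 0.13) and Ahcyl2 at -2.16 (SE 0.12). Mat2a shares 508 exonic bases and Ahcyl2 shares 288 with a gene on the opposite strand. Ahcy itself was not called (0.10, SE 0.09, edgeR adjusted p = 0.379), and a part of the Ahcy-like genes in the cycle was not tested.

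**Figure D5:**
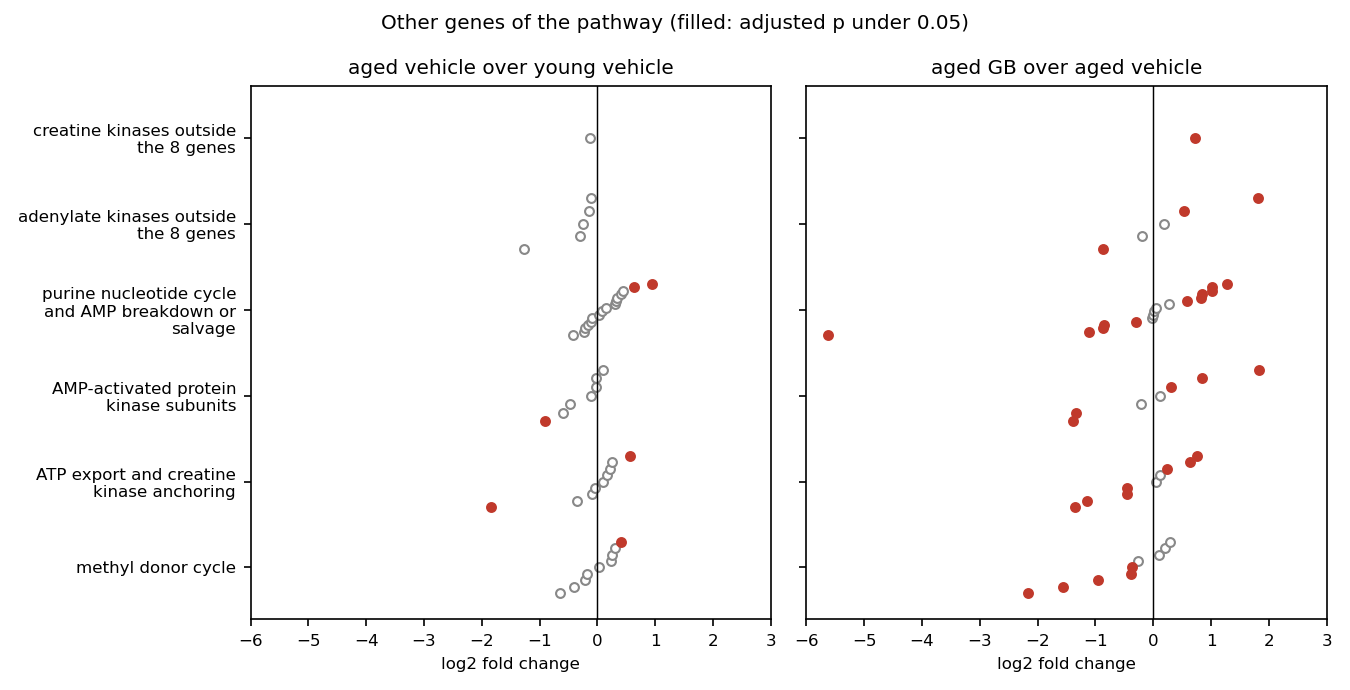
Log2 fold change of each tested gene but Ckmt1 in 6 pathway lists for aged vehicle over young vehicle (left) and aged GB over aged vehicle (right); filled red points had an adjusted p under 0.05 and open points did not. In the adenylate kinase list 0 genes are filled on the left and 3 on the right, and in the methyl donor list all 5 filled points on the right are below 0. Of all tested genes 8.60% were called on the left and 53.2% on the right. The genes shown were not set beside genes of like length. With library totals the right-hand counts of rises and falls were 1 and 2 for adenylate kinases and 0 and 7 for the methyl donor list, where 11.6% of all genes rose and 48.0% fell.

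Across the 9 libraries, which share 3 groups, the genes whose log2 CPM was most like a member's were sought among the 7479 genes that averaged 10 CPM or more. Pearson's r was 0.983 for Nceh1 and 0.975 for Reep3 with Ckmt2, 0.992 for Abhd8 and 0.985 for Ywhae with Ak1, 0.992 for Ssr2 and 0.990 for Nfia with Gamt, and 0.987 for Myh10 and 0.985 for Hmgcs1 with Slc6a8. The closest genes to Ckm, Ampd1, Gatm and Ampd3 had 0.936, 0.929, 0.929 and 0.880. Among the members themselves Ckm was most like Gatm (0.84), and Ckmt2 and Ak1 ran opposite (-0.92).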

How the data were processed

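Per the file headers, the authors deposited raw counts per gene with a gene length column in bases. FastQC, HISAT2, SAMtools and DESeq2 are named, versions aside, in the submitters' processing notes, which list both GRCm39 and mm10; the sources used here give no read counter, annotation or strand setting. Coordinates are those of GENCODE M21 and RefSeq on GRCm38, matched by symbol (6 of 8 members had a promoter window). Groups and replicate numbers came from the titles. Same-group libraries differed beyond sampling noise. In each group replicates 2 and 3 were the closest pair, with a chi-square per gene of 16.29 to 18.41. Pairs with replicate 1 had 32.08 to 59.09. The cause was not tested.

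The counts went through edgeR 4.0.16 (R 4.3.3): filterByExpr (minimum count 10, minimum total 15), TMM factors and 1 quasi-likelihood fit (robust=TRUE) of all 9 libraries. Two-sided p-values were Benjamini-Hochberg adjusted over 17534 genes. The SE is the log2 fold change over the square root of F. Ratios used counts per kilobase with 0.5 added. The procedure was tested on simulated data. For age it recovered 28.6% of 1.5-fold, 64.6% of 2-fold and 95.5% of 4-fold changes. For GB against aged vehicle the values were 29.2, 66.7 and 97.9%. Genes at very low CPM were left out of these rates. Few genes were changed in the simulation, up or down at random, and no trend with length was put in. The simulated GB data gave 100 called genes, where 53.2% of all genes were called in the deposited data. The recovery rates therefore do not describe the GB contrast itself. A member that did not pass may therefore still differ by a small fold. The members and lists were chosen with earlier results of these data known. All members were named, and up to 4 called genes per pathway list and comparison by smallest p; other list genes were named after their values were seen. A gene that the rule named is not reported here. Alternatives were other scalings, filters and designs, DESeq2 1.42.0 and limma-voom (limma 3.58.1); the length offset used lowess trends (span 0.3), and GC content was known for 95.2% of genes.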

Additional observations from a re-analysis of the deposited data

How the results depend on the processing

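In the age comparison, 2 members and 650 genes were called at an adjusted p under 0.01, DESeq2 called 2400 genes, and leaving out 1 library gave 2 to 4 members and 749 to 1456 genes. For GB against young vehicle, 3 members were called at 0.01 and 3 to 5 without 1 library. With GB against aged vehicle 4 members were called in each alternative but library totals (6) and without aged replicate 2 (5). Signs turned with library totals for Ak1 (-0.03), Ampd1 (-0.54) and Gatm (-0.39) with GB against aged vehicle, and for Ak1 (-0.43) against young vehicle. For Ampd1 with GB they also turned with no low count filter (-0.04) and the length offset (-0.04). Against young vehicle they turned with the length offset and the length and GC offset for Ak1 (-0.11 and -0.11) and Ampd3 (0.15 and 0.20), and with the length offset for log2 Ckmt2 per Ckm (-0.39).

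Leaving out 1 library gave log2 fold changes of -0.24 to 0.64 for Ampd3 with age. With GB against aged vehicle it gave -0.24 to 0.01 for Ckm, -0.11 to 0.11 for Ampd1 and -0.78 to 0.11 for Ampd3. It gave log2 ratios of -0.12 to 0.23 for Ckmt2 per Ckm and -0.01 to 0.12 for Ampd3 per Ampd1 with GB against young vehicle, -0.75 to 0.02 for Ampd3 per Ampd1 with GB against aged vehicle, and -0.03 to 0.29 for Gamt per Gatm with age. The cause of these changes was not tested.

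Replicate numbers did not pair the libraries (same-number correlations of -0.028 to 0.057; 2, 1 and 1 of 3 libraries correlated best with their own number). With the replicate block, 4, 4 and 5 members and 1312, 8958 and 9025 genes were called with age, with GB against aged vehicle and with GB against young vehicle, and Gamt was not called with age (adjusted p = 0.0904). With 3 libraries a group, low genes such as Gatm and Gamt carry wider errors, and their age calls lay close to the threshold.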
